A study of Mus musculus with 6 samples.

Results

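RNA levels were compared for 41 genes encoding cyclins, cyclin-dependent kinases (CDKs), CDK inhibitors, the retinoblastoma (Rb) pocket proteins and the E2F transcription factors. Progression through the cell cycle itself was not measured on these arrays. The genes were listed by name, and 40 of the 41 were measured, among 18193 genes with a probe set in all. Ccnb1 was not analysed here. RNA came from LSK cells, the lineage-negative, cKit-positive, Sca1-positive fraction of mouse bone marrow that holds stem cells and multipotent progenitors, on 6 Affymetrix arrays. The 3 WT mice carried Mx1-cre alone, and the 3 N1IC mice carried Mx1-cre together with a lox-stop-lox N1-IC allele, which releases the active intracellular part of Notch1 once Cre has removed the stop. Mice were 5 weeks old. They had been given polyIC 3 times at 20 mcg per g from an age of 21 days, with the sort 2 weeks later than the last dose. PolyIC evokes interferon, which turns on the Mx1 promoter, so Cre acts in blood cells and also in other tissues. The treatment label speaks of floxed Ncstn, whereas the genotype and source labels speak of N1-IC, and groups follow the latter. The WT group held 2 males and 1 female, the N1IC group 3 females. The labels name a mouse for each array but do not say outright that no animal was used more than once, nor which were littermates, so p-values measure the spread between these 6 arrays.

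In G1, D cyclins with Cdk4 or Cdk6, and then E cyclins with Cdk2, phosphorylate the pocket proteins, which releases E2F factors to switch on genes of DNA replication. A cyclins with Cdk2 and Cdk1 act through S phase, and B cyclins with Cdk1 drive mitosis. INK4 proteins block Cdk4 and Cdk6, and Cdkn1b restrains Cdk2. Most stem cells of the marrow rest outside the cycle while multipotent progenitors divide, and in immature T cells Notch signalling is known to act with Ccnd3 and the D cyclin kinases.

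The cells of the groups differed in their lineage markers. T cell markers were higher in N1IC for 7 of 10 genes, with log2 fold changes of 6.82 for Il2ra, 6.77 for Ptcra and 1.78 for Lat. The other 3 did not pass, and Cd4 at -0.62, with N1IC wholly below WT, and Cd8a at -1.18 had negative values. Stem cell markers were lower for all 7 measured genes, B cell markers for 5 of 7, neutrophil and monocyte markers for 2 of 9, and erythroid markers for none of 6, of which 0 had an unadjusted p under 0.05 (limma). Among those that fell, log2 fold changes were -3.09 for Hlf, -2.81 for Mecom and -1.89 for Meis1 among stem cell genes, -5.51 for Ebf1, -3.88 for Cd79a and -2.77 for Vpreb1 among B cell genes, and -2.15 for Cd14 and -1.64 for Cxcr2 among neutrophil and monocyte genes. Mecom was at -1.01 with the mean of its probe sets. Cxcr2 lost its call with sex as a covariate (limma adjusted p 0.110) and without WT replicate 2, WT replicate 3, N1IC replicate 1 or N1IC replicate 2 (0.0938 to 0.111). The summed intensity of the T cell list ran from 2027 to 3747 in WT and from 27159 to 32563 in N1IC, and that of the stem cell list from 12175 to 17466 in WT and from 3595 to 4325 in N1IC. The neutrophil and monocyte sum lay between 29883 and 68413 in WT and between 23322 and 33591 in N1IC, the B cell sum between 15974 and 25019 in WT and between 3467 and 3961 in N1IC, and the erythroid sum between 7918 and 14297 in WT and between 9986 and 17754 in N1IC. Kit, which encodes the cKit of the sort, did not pass the test, with a log2 fold change of -0.25, and Ly6a, the Sca1 gene, was not analysed here. Of markers that divide LSK cells but were not sorted on, Cd34 fell by 0.62 and the progenitor receptor Flt3 was 8.47-fold lower. The Cd34 call was lost under the replicate block (limma adjusted p 0.0590), with sex as a covariate (0.144) and without WT replicate 3 (0.0520). The part of these shifts in the values below was not tested, and in sorted cells measured in bulk, fewer cells of a type and less RNA per cell cannot be told apart.

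None of the 40 measured members differed between N1IC and WT at an adjusted p of 0.05 (limma, two-sided, Benjamini-Hochberg adjustment over all genes), whereas 11.8% of all genes did, 3.47% higher and 8.31% lower in N1IC. At an unadjusted p of 0.05, 10 members passed, 4 with a positive and 6 with a negative log2 fold change, which is 25% of members against 26.6% of all genes. In 14 members the arrays of N1IC and WT did not overlap, with N1IC higher in 8 and lower in 6, 35% of members against 32.8% of all genes. Most differences were small. The median absolute log2 fold change was 0.12 for members and 0.16 for all genes, and 31 members, or 77.5%, lay within 0.25 of zero, against 62.9% of all genes. Only Ccnd1, Ccnt2, Rbl2 and E2f7 exceeded 0.5, 10% of members against 19.3% of all genes. The median signed value was 0.06 for members and -0.01 for all genes. The 95% interval of the difference stayed inside a 2-fold change in either direction for 37 members, or 92.5%, against 80.5% of all genes, with Ccnd1, Ccnt2 and Rbl2 as the exceptions. A p that misses the threshold does not show equal levels, and the intervals bound the differences that 3 arrays a group allow.

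Brightness bears on this comparison, since 37 of the 40 members belong to the brighter 60% of genes. Over that brighter set, 53.9% of genes lay within 0.25 of zero, 23.8% exceeded 0.5 and 42% had groups that did not overlap. When only that set was tested, 19.5% of its genes passed, and 3 of the 37 members did, namely Cdkn2d, E2f6 and E2f8. Over all genes, 3 members passed when probe sets were averaged per gene, where 12.3% of genes did, 2 with an intensity trend, where 13.3% did, and 2 with log2 of intensity + 16, where 12.5% did.

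**Figure D1:**
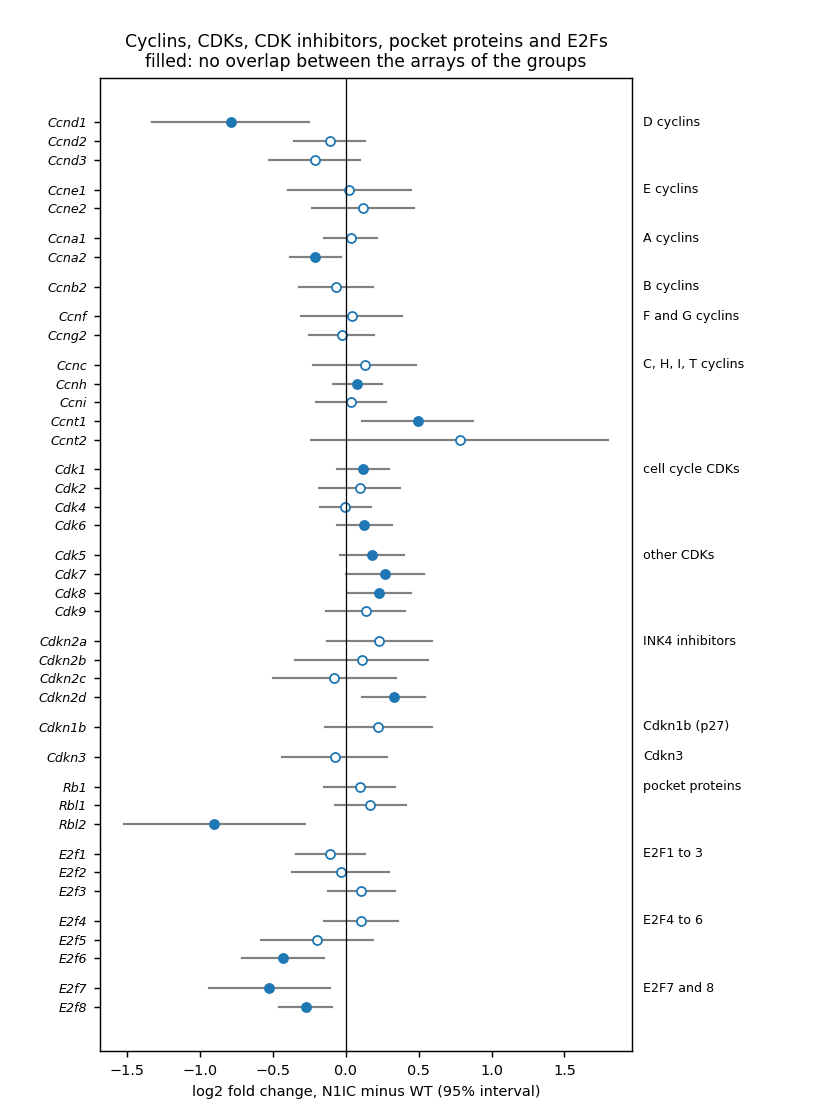
Log2 fold change (N1IC minus WT, x axis) of the 40 measured members by family, each with the 95% interval from limma over 3 arrays a group. Filled points mark the 14 members whose groups do not overlap; most points lie near zero, with Ccnd1 and Rbl2 farthest to the left and Ccnt2, with the widest interval, farthest to the right.

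All 3 D cyclins, the regulatory subunits of Cdk4 and Cdk6 in G1, had negative values on their brightest probe set, and none passed. Ccnd1 stood at 11.51, 11.37 and 10.85 on WT replicates 1, 2 and 3 (log2 intensity, as for all levels below) and at 10.15, 10.51 and 10.71 on N1IC replicates 1, 2 and 3. The groups did not overlap, although WT replicate 3 lay close to the highest N1IC array. Its mean was 11.24 ± 0.35 in WT and 10.46 ± 0.28 in N1IC (SD, n = 3), a difference of -0.79 ± 0.22 (SE) on the log2 scale at a limma adjusted p of 0.0756. Without WT replicate 3 the log2 fold change was -0.99 and the adjusted p 0.0483, in a fit that called 6.41% of all genes. The 2 dimmer Ccnd1 probe sets also had negative values, down to -0.39. Ccnd2, a D cyclin that growth factor signals induce in blood cells, lay between 12.87 and 13.12 in WT and between 12.81 and 12.96 in N1IC, a log2 fold change of -0.11 with an interval from -0.35 to 0.13. Its 7 probe sets had both signs, from -0.33 to 0.30. Those at -0.33, -0.24 and -0.23 had N1IC wholly below WT, without passing over all probe sets (limma adjusted p 0.0960 to 0.160). The other Ccnd2 probe sets had overlapping groups. Ccnd3, the D cyclin that early T cells depend on, stood at 11.24, 11.56 and 11.65 in WT and at 11.31, 11.34 and 11.16 in N1IC. These ranges overlapped, and the log2 fold change was -0.21 with an interval from -0.53 to 0.10. The dimmer Ccnd3 probe sets had both signs, at 0.27 and -0.37.

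The E, A and B cyclins had small values, and none passed. Ccne1 and Ccne2, the partners of Cdk2 at the start of S phase, had log2 fold changes of 0.03 and 0.12, with intervals from -0.40 to 0.45 and from -0.23 to 0.47. Ccne1 stood at 9.26, 9.70 and 9.90 in WT and at 9.77, 9.60 and 9.57 in N1IC, and Ccne2 at 9.35, 9.64 and 9.69 in WT and at 9.77, 9.45 and 9.81 in N1IC. For both, the groups overlapped and WT replicate 1 was the lowest array. Ccna2, the A cyclin of dividing somatic cells, stood at 12.33, 12.27 and 12.34 in WT and at 12.10, 12.15 and 12.06 in N1IC. The N1IC arrays were all lower, but by little, with a log2 fold change of -0.21 ± 0.07 (SE, n = 3) and an adjusted p of 0.128 by limma. A dimmer Ccna2 probe set gave 0.05. Ccna1, an A cyclin best known from the male germ line, lay between 5.18 and 5.29 in WT and between 5.21 and 5.30 in N1IC. Ccnb2, a mitotic cyclin, stood at 11.81, 11.63 and 11.77 in WT and at 11.64, 11.83 and 11.55 in N1IC, a log2 fold change of -0.07 with an interval from -0.32 to 0.19.

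Ccnf, the F-box cyclin of a ubiquitin ligase, and Ccng2, a cyclin associated with cell cycle arrest, had log2 fold changes of 0.04 and -0.03. The brightest Ccng2 probe set stood at 11.29, 11.12 and 11.26 in WT and at 11.31, 11.12 and 11.16 in N1IC, which overlapped. A dimmer Ccng2 probe set read otherwise, at 7.30, 6.92 and 6.68 in WT and at 8.05, 7.63 and 8.58 in N1IC. In the fit over all probe sets the dimmer one was at 1.12, without passing (limma adjusted p 0.0574). Among the cyclins whose kinases act mainly on transcription, the T cyclins had the largest positive values on the brightest probe sets. They are partners of Cdk9 in the elongation factor P-TEFb. Ccnt1 stood at 11.34, 11.29 and 10.82 in WT and at 11.71, 11.54 and 11.69 in N1IC. All N1IC arrays were above all WT arrays, with a log2 fold change of 0.49 ± 0.16 (SE, n = 3) and an adjusted p of 0.107 by limma. Ccnt2 was uneven within both groups, at 9.68, 11.03 and 10.36 in WT and at 11.44, 10.49 and 11.48 in N1IC. Its log2 fold change of 0.78 had an interval from -0.24 to 1.80. The dimmer Ccnt2 probe sets ran from -0.29 to 0.68. The one at -0.29 had N1IC wholly below WT, without passing over all probe sets (limma adjusted p 0.176). The one at 0.62 had N1IC wholly above WT and is given below. Ccnh, part of the CDK-activating kinase, Ccnc, part of the Mediator kinase, and Ccni, an atypical cyclin, had values of 0.08, 0.13 and 0.03. The dimmer Ccnc probe sets ran from -0.72 to 0.67. Those at 0.67 and 0.31, with low signals, had N1IC wholly above WT without passing over all probe sets (limma adjusted p 0.120 and 0.0859). The other Ccnc probe sets had overlapping groups. Ccni was at -0.00 when quantile normalization was repeated and at 0.31, without passing, with the mean of its probe sets. Its dimmer probe sets were at 0.44, 0.44 and 0.33. The 2 at 0.44 had N1IC wholly above WT but did not pass over all probe sets (limma adjusted p 0.0758 and 0.0638).

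**Figure D2:**
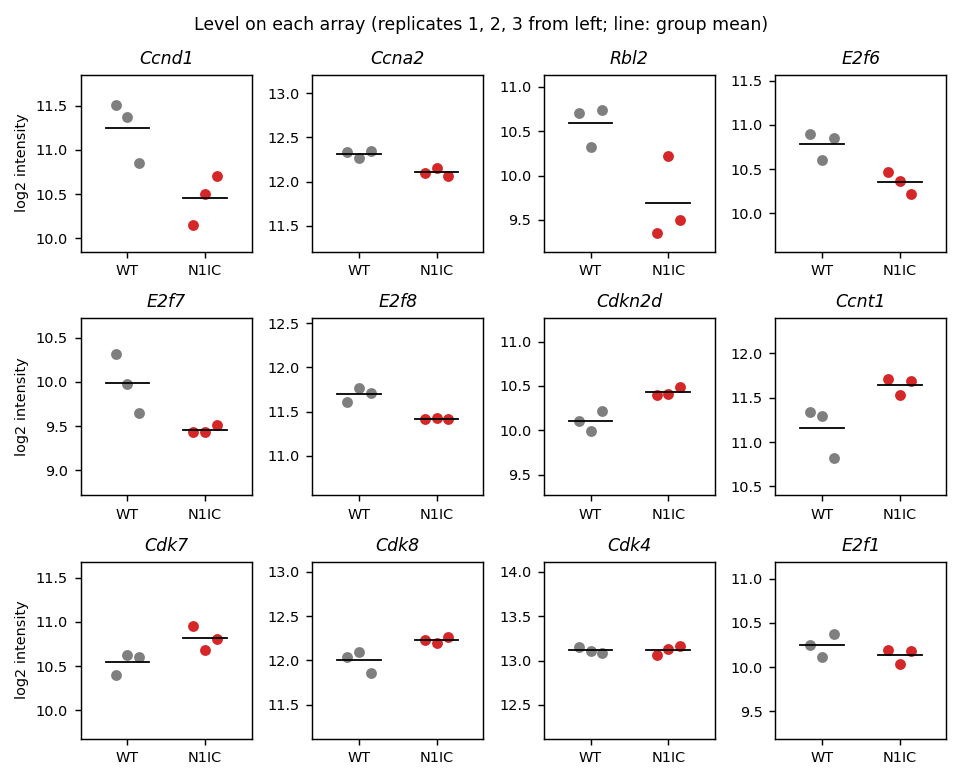
Log2 intensity (y axis, each panel spanning the same height) of 12 members on the 3 WT and 3 N1IC arrays, with group means as lines. The arrays separate by little for Ccnd1, Ccna2, Rbl2, E2f6, E2f7, E2f8, Cdkn2d, Ccnt1, Cdk7 and Cdk8, and coincide or overlap for Cdk4 and E2f1.

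Of the 8 CDKs, 7 had small positive values on the brightest probe set, the exception being Cdk4 at -0.00 (0.01 with median centring). On that probe set 5, or 62.5% of the 8, had N1IC arrays wholly above WT, against 13.1% of all genes. Cdk4 stood at 13.16, 13.11 and 13.08 in WT and at 13.06, 13.13 and 13.16 in N1IC. Its means of 13.12 ± 0.04 and 13.12 ± 0.05 (SD, n = 3) left an interval from -0.18 to 0.17. Cdk2, the partner of E and A cyclins, lay between 10.71 and 10.92 in WT and between 10.75 and 11.07 in N1IC, a log2 fold change of 0.10. Cdk1, the kinase of mitosis, stood at 12.31, 12.30 and 12.23 in WT and at 12.35, 12.40 and 12.45 in N1IC. Its groups did not overlap, though the difference of 0.12 did not pass (limma adjusted p 0.366). Among kinases outside the core cycle, Cdk7, the catalytic part of the CDK-activating kinase, had 0.27 with an interval from 0.00 to 0.53, and Cdk8, the Mediator kinase, 0.23 with an interval from 0.02 to 0.45. Cdk8 stood at 12.04, 12.10 and 11.86 in WT and at 12.24, 12.20 and 12.26 in N1IC. On the brightest probe set both of these had N1IC wholly above WT, with adjusted p of 0.186 and 0.163 by limma. The other Cdk7 probe sets ran from -0.57 to 0.22. Those at -0.31 and -0.57 had N1IC wholly below WT, without passing over all probe sets (limma adjusted p 0.103 and 0.0790). Those at 0.22 and 0.05 had overlapping groups. The Cdk7 probe sets thus separated in opposite directions. Cdk5, a kinase best known from neurons, had 0.18, but its 2 dimmer probe sets were negative, at -0.31 and -0.05. The Cdk5 probe set at -0.31 had N1IC wholly below WT and did not pass over all probe sets (limma adjusted p 0.0885).

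Cdk6 and Cdk9 gave different answers on different probe sets. The brightest Cdk6 probe set stood at 13.07, 13.09 and 12.97 in WT and at 13.23, 13.15 and 13.13 in N1IC, a difference of 0.13 ± 0.08 (SE, n = 3) on the log2 scale at a limma adjusted p of 0.368. A dimmer one (1460291_at) stood at 8.17, 7.76 and 6.81 in WT and at 9.88, 10.25 and 9.77 in N1IC. All N1IC arrays were thus well above all WT arrays on this probe set. Its signal rose 5.23-fold, from 7.58 ± 0.70 to 9.97 ± 0.25 (SD, n = 3) on the log2 scale, and passed over all probe sets (limma adjusted p 0.0128). The call held in each fit that left out 1 array and was lost with sex as a covariate, where the log2 fold change was 2.20 and the adjusted p 0.134. For Cdk9, the kinase of P-TEFb, the brighter probe set had a log2 fold change of 0.14 with overlap between the groups. The dimmer one (1457240_at) stood at 8.95, 8.89 and 8.83 in WT and at 9.50, 9.62 and 9.53 in N1IC. It rose by 0.66 on the log2 scale with an adjusted p of 0.00796 by limma over all probe sets, held without any single array, and had an adjusted p of 0.0902 with sex as a covariate.

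None of the 6 inhibitors passed. Cdkn2d, an INK4 inhibitor of Cdk4 and Cdk6, stood at 10.10, 9.99 and 10.22 in WT and at 10.40, 10.41 and 10.49 in N1IC. The groups did not overlap, and the log2 fold change of 0.33 ± 0.09 (SE, n = 3) had an adjusted p of 0.0677 by limma, the lowest of all members. Cdkn2c, the INK4 inhibitor known to restrain stem cell division, lay between 9.51 and 10.16 in WT and between 9.66 and 9.76 in N1IC, with a value of -0.08. Cdkn2a, which encodes both an INK4 protein and the p53 activator ARF, lay between 4.70 and 4.98 in WT and between 4.92 and 5.37 in N1IC. Its neighbour Cdkn2b lay between 4.06 and 4.47 in WT and between 4.01 and 4.55 in N1IC. Their log2 fold changes of 0.23 and 0.11 come from low signals, and no detection calls were used. Cdkn1b, the inhibitor of Cdk2 that holds cells in quiescence, stood at 12.21, 12.12 and 11.83 in WT and at 12.45, 12.05 and 12.33 in N1IC, which overlapped, with a log2 fold change of 0.22 and an interval from -0.14 to 0.59. Cdkn3, a phosphatase that acts on CDKs, stood at 10.80, 10.78 and 10.56 in WT and at 10.41, 10.91 and 10.59 in N1IC, a value of -0.08.

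Of the pocket proteins, only Rbl2 had groups that did not overlap. Rb1 and Rbl1, the latter highest in cycling cells, had log2 fold changes of 0.09 and 0.17 with overlapping groups. Rbl2, the pocket protein that prevails in resting cells as part of the repressive DREAM complex, stood at 10.71, 10.33 and 10.74 in WT and at 9.35, 10.22 and 9.50 in N1IC. The N1IC arrays were all lower, with N1IC replicate 2 close to the lowest WT array. Its means were 10.59 ± 0.23 and 9.69 ± 0.47 (SD, n = 3), a difference of -0.90 ± 0.25 (SE) on the log2 scale, the most negative of the members, at a limma adjusted p of 0.0780. The other Rbl2 probe set gave nearly the same value, -0.89, with no overlap either. Without N1IC replicate 2 the log2 fold change was -1.17 and the adjusted p 0.0217, in a fit that called 7.48% of all genes, and with sex as a covariate no member passed.

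Of the 8 E2F genes, 6 had negative values, 3 of them (37.5% of the 8) with N1IC wholly below WT, as 19.7% of all genes had, and none passed. The activators E2f1, E2f2 and E2f3 had log2 fold changes of -0.11, -0.04 and 0.11 on their brightest probe sets, and the groups overlapped for each. Their intervals lay between -0.37 and 0.34. E2f3 stood at 12.25, 12.14 and 11.99 in WT and at 12.26, 12.16 and 12.28 in N1IC. Of the factors that mainly repress, E2f4 and E2f5 had 0.10 and -0.20, and E2f6, which acts with Polycomb proteins, stood at 10.90, 10.60 and 10.85 in WT and at 10.47, 10.36 and 10.22 in N1IC. E2f6 thus did not overlap on this probe set, at -0.43 ± 0.12 (SE, n = 3) at a limma adjusted p of 0.0678, but a dimmer probe set had the opposite sign, 0.72. The atypical repressors E2f7 and E2f8 bind DNA without a partner and dampen E2F targets late in S phase. On the brightest probe set both were lower on all N1IC arrays. E2f7 stood at 10.32, 9.98 and 9.65 in WT and at 9.43, 9.44 and 9.51 in N1IC, a difference of -0.52 ± 0.17 (SE, n = 3) on the log2 scale at a limma adjusted p of 0.111. Without WT replicate 3, the lowest WT array, it was -0.69 with an adjusted p of 0.0466. E2f8 stood at 11.61, 11.76 and 11.71 in WT and at 11.41, 11.43 and 11.42 in N1IC, a difference of -0.28 ± 0.08 (SE, n = 3) on the log2 scale at a limma adjusted p of 0.0719. A dimmer E2f8 probe set was at -0.05 with overlapping groups. With the mean of its probe sets E2f8 was at -0.16 and did not pass (limma adjusted p 0.483). For E2f3, a dimmer probe set (1427462_at) stood at 7.21, 7.27 and 7.32 in WT and at 8.62, 7.79 and 8.41 in N1IC. It rose 2.01-fold with an adjusted p of 0.0400 by limma over all probe sets, a call lost in each fit that left out 1 array other than N1IC replicate 2, at adjusted p between 0.0890 and 0.125, and at 0.238 with sex as a covariate.

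Promoter windows (250 bases before to 50 after the start, RefSeq, GRCm38.p6) were given for 32 of the 41 genes, in 37 windows, and were searched on both strands for the letters of 3 motifs. An E2F motif (TTTCCCGC, TTTCGCGC, TTTGCCGC or TTTGGCGC) was found in 7 of the 37 windows, or 18.9%, against 2.26% of all 32851 windows. These windows belong to Cdk1, Cdk2, Cdkn2a, Rbl1, E2f2, E2f3 and E2f7. A CHR motif (TTTGAA or TTCGAA), the element that DREAM is known to bind at mitotic genes, was in 10 windows, or 27%, against 19.2% of all, and the letters GTGGGAA of the Notch partner RBPJ were in 1, or 2.7%, against 6.38% of all. The motifs do not overlap one another in the windows shown. The 4 stretches that follow are the 250 bases before the start. E2f7, E2f8 and Rbl2 are shown because they had both a motif match and, on the brightest probe set, separate groups in the negative direction. E2f3 is shown as the member with the RBPJ letters. Ccnd1, Ccna2 and E2f6 also had separate groups in the negative direction, but no match was found for them in the windows given. Capitals mark the motif letters, which are an E2F match in E2f7, a CHR match in E2f8 and in Rbl2, and in E2f3 an RBPJ match, a CHR match and an E2F match in that order.
E2f7, chr10:110745189-110745438, plus strand: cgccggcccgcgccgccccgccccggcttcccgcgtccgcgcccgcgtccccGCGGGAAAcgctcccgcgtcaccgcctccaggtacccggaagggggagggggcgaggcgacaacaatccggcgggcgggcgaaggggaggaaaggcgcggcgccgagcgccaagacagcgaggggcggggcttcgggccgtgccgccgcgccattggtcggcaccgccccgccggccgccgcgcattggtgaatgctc
E2f8, chr7:48881597-48881846, minus strand: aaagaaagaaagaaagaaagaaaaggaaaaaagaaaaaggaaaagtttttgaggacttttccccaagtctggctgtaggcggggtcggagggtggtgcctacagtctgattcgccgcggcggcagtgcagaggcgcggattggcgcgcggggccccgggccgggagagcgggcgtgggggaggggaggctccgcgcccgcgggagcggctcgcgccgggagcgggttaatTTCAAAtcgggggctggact
Rbl2, chr8:91069807-91070056, plus strand: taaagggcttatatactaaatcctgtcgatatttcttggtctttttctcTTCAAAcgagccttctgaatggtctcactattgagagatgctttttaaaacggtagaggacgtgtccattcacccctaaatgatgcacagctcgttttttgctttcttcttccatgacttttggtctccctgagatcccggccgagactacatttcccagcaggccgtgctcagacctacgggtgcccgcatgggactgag
E2f3, chr13:29986064-29986313, minus strand: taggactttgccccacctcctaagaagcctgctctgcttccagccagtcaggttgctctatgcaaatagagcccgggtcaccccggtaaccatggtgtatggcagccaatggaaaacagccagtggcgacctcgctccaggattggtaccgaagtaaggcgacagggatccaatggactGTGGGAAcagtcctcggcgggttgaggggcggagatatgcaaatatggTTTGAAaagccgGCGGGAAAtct
Counted from the start, the E2F letters of E2f7 begin at -198, the CHR letters of E2f8 at -20 and of Rbl2 at -201. In E2f3 the RBPJ letters begin at -71, the CHR letters at -23 and the E2F letters at -11. A match is a description of letters and not a measured site, and the members with an E2F match included values of both signs, such as 0.12 for Cdk1 and -0.52 for E2f7.

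The members were covered by 94 probe sets, and 28 members had more than 1. In 15 of these 28 every probe set had the same sign, and in 13 they had both. With all 34945 probe sets tested singly, 9.93% of all passed, 3.78% higher and 6.15% lower. Of the members' probe sets 4 passed, or 4.26%, all higher and each a dimmer one of its gene, namely those of Cdk6, Cdk9 and E2f3 given above and the dimmest of 5 for Ccnt2. That Ccnt2 probe set (1452297_at) stood at 5.08, 5.32 and 4.86 in WT and at 5.73, 5.63 and 5.75 in N1IC, with an adjusted p of 0.0388 by limma, and it lost the call in each fit that left out 1 array other than WT replicate 2, and with sex as a covariate (adjusted p 0.283). Which transcripts the probe sets of a gene read was not determined. The Ccne1 and Cdk4 values come from probe sets whose design names mark possible cross-hybridization with other genes, and those of Ccnh and E2f5 from ones that can read several related transcripts.

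**Figure D3:**
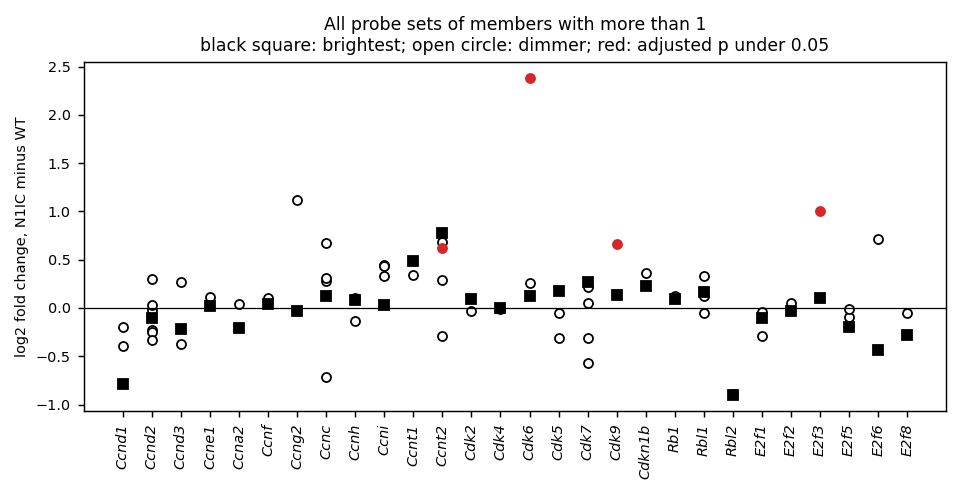
Log2 fold change (N1IC minus WT, y axis) of every probe set of the 28 members with more than 1, from the fit over all probe sets; squares are the brightest of a gene and circles the dimmer ones. The 4 red circles, for Ccnt2, Cdk6, Cdk9 and E2f3, are those with an adjusted p under 0.05, while the 3 probe sets of Cdk4 and the 2 of Rbl2 lie on top of each other.

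Other genes of the cell cycle, listed by name, were described in the same way. Of 25 measured replication genes, which E2F factors control, 1 was higher and 1 lower, with a median log2 fold change of 0.00. Over all genes 3.47% were higher and 8.31% lower. At an unadjusted p under 0.05 (limma) 2 replication genes were positive and 1 negative, 12% of the list against 26.6% of all genes. Pole, the catalytic subunit of DNA polymerase epsilon, was lower at 11.33, 11.33 and 11.32 in N1IC against 11.77, 11.71 and 11.77 in WT, and fell by 0.42 with an adjusted p of 0.0141 by limma. Orc1, a subunit of the origin recognition complex, lay between 7.71 and 8.05 in WT and stood at 8.80, 8.36 and 8.87 in N1IC, and rose by 0.76 with an adjusted p of 0.0402 by limma. Pole lost its call without WT replicate 3 and without either of N1IC replicates 1 and 3, and Orc1 without any array other than N1IC replicate 2. Of 25 mitosis genes none passed, against 11.8% of all genes. An unadjusted p under 0.05 (limma) was reached by 1, or 4%, against 26.6% of all genes. Log2 fold changes of the mitosis list ran from -0.24 to 0.39, with a median of 0.04. Top2a, the topoisomerase of dividing cells, and Birc5, a subunit of the chromosomal passenger complex, had log2 fold changes of -0.03 and 0.05. With the mean of its probe sets Top2a was at 0.42 and did not pass. All 25 intervals of this list lay inside a 2-fold change.

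Among 17 regulators of CDK activity 1 was lower and none higher, against 11.8% of all genes called. At an unadjusted p under 0.05 (limma) 4 were positive and 2 negative, 35.3% of the list against 26.6% of all genes. The called gene was Cdkn1c, the inhibitor tied to stem cell quiescence, at 6.72, 6.53 and 6.18 in WT and at 5.33, 5.66 and 5.47 in N1IC. It fell by 0.99 on the log2 scale with an adjusted p of 0.0167 by limma. The call was lost when WT replicate 2 or either of N1IC replicates 1 and 3 was left out. The Cdkn1c signal was low, below the median level of all genes, 8.08. With log2 of intensity + 16 its value was -0.79 (limma adjusted p 0.0200). Cdkn1a, the inhibitor that p53 induces, stood at 12.09, 11.36 and 11.57 in WT and at 11.90, 12.16 and 12.04 in N1IC. It did not pass, with a log2 fold change of 0.36 and an interval from -0.12 to 0.84. It was at 0.57 without WT replicate 1 (limma adjusted p 0.0511), at 0.20 without WT replicate 2 and at 0.67 with sex as a covariate. Of 9 partners of E2F and DREAM, 1 was lower and none higher, against 11.8% of all genes called. At an unadjusted p under 0.05 (limma) 1 was positive and 1 negative, 22.2% of the list against 26.6% of all genes. Foxm1, the transcription factor of mitotic genes, stood at 9.12, 9.32 and 9.32 in WT and at 8.75, 8.88 and 8.79 in N1IC. It fell by 0.45, with an adjusted p of 0.0292 by limma that was above the threshold without any array other than WT replicate 1. Of 11 partners of the transcription CDKs none passed, against 11.8% of all genes. An unadjusted p under 0.05 (limma) was reached by 2, or 18.2%, against 26.6% of all genes. The brightest of the list, Ccnl1, a cyclin linked to splicing, and Larp7, a subunit of the complex that holds P-TEFb inactive, had log2 fold changes of 0.17 and -0.07. Pole, Orc1, Cdkn1c and Foxm1 all lost their calls with sex as a covariate, Orc1 also with the mean of its probe sets (limma adjusted p 0.0822) and Foxm1 with an intensity trend (0.0691).

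**Figure D4:**
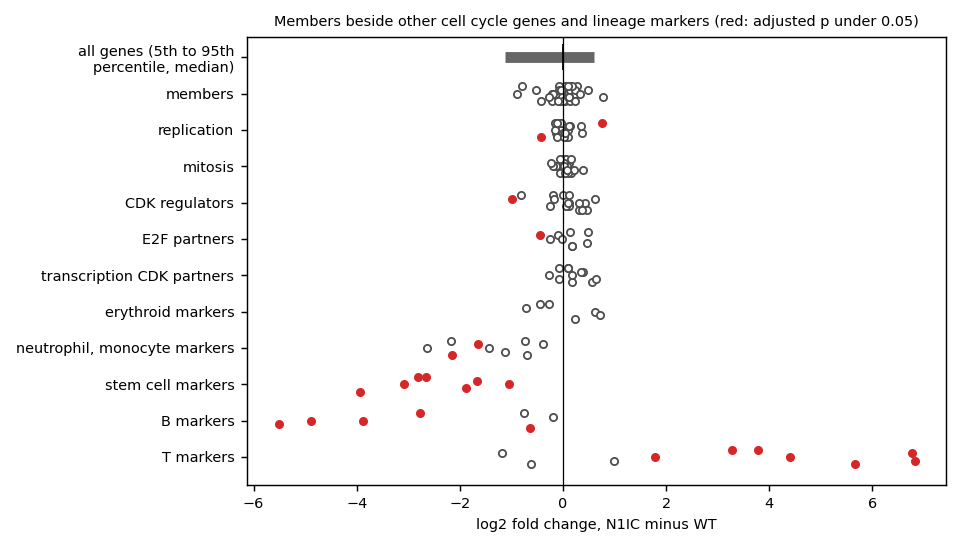
Log2 fold change (N1IC minus WT, x axis) of each measured gene in the members, 5 further cell cycle lists and 5 lists of lineage markers, with the range from the 5th to the 95th percentile of all genes, -1.12 to 0.59, as a bar; points are spread vertically for legibility. Red points passed at an adjusted p of 0.05; none is among the members, the mitosis genes, the partners of the transcription CDKs or the erythroid markers, while the stem cell list is wholly red on the left and 7 of 10 T cell markers are red on the right.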

How the data were processed

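Total RNA of LSK cells from 3 WT and 3 N1IC mice was amplified, labelled with biotin and hybridized to 1 array each, per the labels' protocols. The deposited intensity values are on a linear scale, as their range shows, and were made by the authors with RMA, per the submitters' processing notes; its version is not given in the sources used here. Median intensity per array lay between 89.0 and 92.4. The number of arrays limits the precision.

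Of 45101 probe sets, 34945 had 1 gene symbol, 932 had several and 64 were controls. RefSeq (GRCm38.p6) held 34741 of the symbols, which were brought up to date by gene ID. Each of 18193 genes was read from its brightest probe set, by the mean over 6 arrays. Log2 intensities were fitted with limma 3.58.1 in R 4.3.3 (lmFit, eBayes, no covariate, Benjamini-Hochberg over all genes), with 4 residual and 2.05 prior degrees of freedom. On simulated data with 200 of 18193 genes changed, this fit recovered 65% of changes of 1 and 88% of changes of 2 on the log2 scale, with 10 unchanged genes called. Changes under 1, the size of all member values, were not simulated. The data also held more called genes, 11.8%, so these rates do not give the recovery for the members. Plots were drawn with matplotlib 3.10.9.

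The members and lists were chosen with earlier results of these data known. All members are named. Arrays are given one by one for members of each family by smallest p and for others that a result turns on; of other lists, up to 4 called genes, or the 2 brightest if none was called, and always Cdkn1a and Cdkn1c; of marker lists, up to 3 called genes. Kit and the dimmer probe sets were picked with their values in view. Alternatives were a replicate block, sex as a covariate, repeated quantile normalization, median centring, the brighter 60% of genes, the mean of all probe sets, each probe set alone, an intensity trend, array weights, log2 of intensity + 16, and leaving out each array.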

Additional observations from a re-analysis of the deposited data

How the results depend on the processing

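Of 637 values of single members over 16 alternatives, 607 kept their direction, and the 30 with the other sign were not called in either fit. These 30 came from 14 of the 40 members (Ccne1, Ccna1, Ccnb2, Ccnf, Ccng2, Ccni, Cdk4, Cdk5, Cdk7, Cdkn2c, Cdkn3, E2f1, E2f2 and E2f6), so counts of positive and negative members vary with the setting. Under 6 alternatives at least 1 member passed on its own values, 10 members in all. With only the brighter 60% of genes, 1 member was higher (Cdkn2d) and 2 lower (E2f6, E2f8), 8.11% of members against 19.5% of genes. With the mean of all probe sets 3 were higher (Cdk6, Cdk9, E2f3), at log2 fold changes of 0.92, 0.40 and 0.56, and none was lower, 7.5% of members against 12.3% of all genes. With an intensity trend 2 were lower (Ccna2, E2f8) and none was higher, 5% against 13.3%. With log2 of intensity + 16, 1 was higher (Cdkn2d) and 1 lower (E2f8), 5% against 12.5%. With all probe sets tested singly, 4 of the 40 members had a probe set that was higher, against 1022 of 18193 genes. For a lower probe set these counts were 0 and 1611. By probe set, 4.26% of the members' were higher against 3.78% of all, and 0% were lower against 6.15%. With 1 array left out, between 0 and 2 members were lower (Ccnd1 and E2f7 without WT replicate 3, Rbl2 without N1IC replicate 2) and 0 higher, while over all genes 332 to 509 were higher and 835 to 1420 lower, against 632 and 1512 with all arrays. With sex as a covariate, which sets N1IC against the single WT female, 116 genes were higher and 333 lower, and no member passed.

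The replicate block gave 357 higher and 936 lower genes and no member. Deviations of same-numbered arrays from their group means correlated at -0.09, -0.07 and 0.07 for numbers 1, 2 and 3. Those of differently numbered arrays ran from -0.14 to 0.16. With 3 arrays a group, such values cannot show whether the numbers pair the mice. Under the block Pole, Cdkn1c, Foxm1 and Cd34, and the dimmer probe sets of Ccnt2 and E2f3, were not called.

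Median centring and repeated quantile normalization moved the median of all genes to 0.00 and -0.01. The low signals of Ccna1, Cdkn1c, Cdkn2a and Cdkn2b limit what their differences show.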

Other observations

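Several members and partners of the transcription CDKs were uneven among N1IC mice, with N1IC replicate 2 apart from replicates 1 and 3; they were picked after their values were seen. Ccnl1 stood at 13.11, 12.31 and 13.18 on N1IC replicates 1, 2 and 3 and between 12.60 and 12.75 in WT. Ccnl2, a close relative, stood at 11.09, 10.03 and 11.18 in N1IC and between 10.19 and 10.23 in WT. Ccnt2 was at 11.44, 10.49 and 11.48 in N1IC and between 9.68 and 11.03 in WT. Rbl2 had its highest N1IC value on replicate 2, at 9.35, 10.22 and 9.50 in N1IC and between 10.33 and 10.74 in WT. On their brightest probe sets none of these genes passed between the groups with all 6 arrays. The dimmest Ccnt2 probe set, given above, did pass.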
